A study of Mus musculus with 18 samples.

Results

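The 10 genes described here are Pou5f1, Nanog, Sox2, Klf2, Klf4, Klf5, Esrrb, Zfp42, Tbx3 and Tfcp2l1, a named set of transcription factors of naive mouse pluripotency. They were taken by name among the 19938 genes that had at least 1 probe set with a single gene symbol, and 10 of 10 were found, each with 1 probe set. The series holds 18 single-colour Affymetrix arrays (Mouse Gene 1.0 ST design), 1 for each mouse cell sample, on which messenger RNA levels were read. Values are log2 intensities after quantile normalization of all 18 arrays together, so a difference of 1 is a 2-fold change on the array scale. The median of every array was 7.93, and olfactory receptor genes, taken as genes that these cells do not express, had their 95th percentile between 6.79 and 7.09 over the arrays.

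Of the arrays, 10 were from pluripotent cells. They were 3 lines of reprogrammed colon tumor cells (RTC 1, 2 and 3), made by reprogramming cells of colon tumours as in the making of induced pluripotent stem cells, 2 derivatives of these lines (number 45 from RTC 1 and number 9 from RTC 3), 3 embryonic stem cell (ESC) lines that were Apc +/+, Apc Min/+ or Apc Min/Min, and S33 ESCs with or without doxycycline (dox). Min is a truncating mutation of Apc, whose protein keeps beta-catenin low. A further 2 arrays were of small intestinal organoids, and 4 of mouse embryonic fibroblasts (MEFs), all derived from derivative 45, with or without 4-hydroxytamoxifen (4-OHT) for 2 days, given at 1 uM to organoids and at 2 ug/ml to MEFs. The last 2 arrays were of S33 MEFs with or without dox. The series asked, in this order, how far RTCs resemble pluripotent stem cells, what Apc mutation does in different cell types, and what mutant beta-catenin does when induced in ESCs and MEFs. The labels give neither a dose or time for dox nor the genetic change that separates the derivatives from their RTC lines. All organoids and 4 of the 6 MEF arrays thus come from 1 derivative, no animal is named for any sample, and nothing says that arrays of a group are of separate cultures, so p-values measure only the spread between these samples, which may be technical. The labelled medium of RTCs and ESCs contained serum and LIF. The protocol also names Apc Min/Min ESCs kept in a trophoblast stem cell medium, and the label of the Min/Min array does not say which medium applied to it.

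Naive pluripotency is held by a network of transcription factors that activate one another's genes. Pou5f1 (Oct4) and Sox2 bind DNA side by side and form its core with Nanog, while Esrrb, Tfcp2l1, Klf2, Klf4, Klf5 and Tbx3 tie that core to the LIF and Wnt signals under which mouse ESCs are grown. Zfp42 (Rex1) is a widely used marker of the naive state. In the Wnt branch, beta-catenin relieves repression by Tcf7l1, which otherwise lowers the transcription of Esrrb, Nanog, Klf2 and other members. Several members also have roles outside pluripotent cells: Klf4 and Klf5 act in the intestinal epithelium and in fibroblasts, Tbx3 in limb and other mesenchyme, and Sox2 in neural and foregut cells.

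The promoter windows of 8 members were in the RefSeq table of GRCm38.p6 used here, which does not list Klf5 and Tbx3. Each window held the 250 bases before the annotated start, and 4 motifs were searched on both strands: TTTGCAT (bound by Pou factors), CATTGT (Sox factors), GGGNGGGGC (Klf and Sp factors) and a Tcf motif in both of its forms, CTTTGAT and CTTTGTT. None of these motifs contains another as spelled. The windows of Nanog, Sox2 and Zfp42 are shown because they are the ones that held TTTGCAT, and that of Klf4 because its level, unlike theirs, stayed well above the array median in every cell type. Capitals mark matches on either strand, to TTTGCAT and CATTGT in the first 3 windows and to GGGNGGGGC in that of Klf4. Nanog lies at chr6:122707239-122707488 on the plus strand, Sox2 at chr3:34649745-34649994 on the plus strand, Zfp42 at chr8:43307010-43307259 on the minus strand and Klf4 at chr4:55532476-55532725 on the minus strand, each printed 5′ to 3′ along its own gene.
Nanog: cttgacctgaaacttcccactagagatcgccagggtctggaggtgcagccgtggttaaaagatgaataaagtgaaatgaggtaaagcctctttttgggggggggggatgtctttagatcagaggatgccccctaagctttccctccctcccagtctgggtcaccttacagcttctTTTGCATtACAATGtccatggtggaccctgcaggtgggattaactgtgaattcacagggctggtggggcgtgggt
Sox2: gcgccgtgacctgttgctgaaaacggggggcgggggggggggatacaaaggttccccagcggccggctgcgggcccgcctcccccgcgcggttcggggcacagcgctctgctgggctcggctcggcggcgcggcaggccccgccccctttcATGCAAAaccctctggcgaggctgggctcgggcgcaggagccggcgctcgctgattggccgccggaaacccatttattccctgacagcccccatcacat
Zfp42: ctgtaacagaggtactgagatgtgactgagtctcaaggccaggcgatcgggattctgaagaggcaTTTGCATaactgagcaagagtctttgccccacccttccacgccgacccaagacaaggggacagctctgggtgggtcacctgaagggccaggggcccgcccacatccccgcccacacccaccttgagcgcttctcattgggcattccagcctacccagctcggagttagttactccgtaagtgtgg
Klf4: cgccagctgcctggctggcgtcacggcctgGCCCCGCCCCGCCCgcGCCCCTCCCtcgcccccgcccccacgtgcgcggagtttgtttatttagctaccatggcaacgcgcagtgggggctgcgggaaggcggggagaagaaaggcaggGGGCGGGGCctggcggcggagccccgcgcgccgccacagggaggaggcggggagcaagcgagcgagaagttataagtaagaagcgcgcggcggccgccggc

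TTTGCAT was found in 3 of 8 member windows, with its first base as printed 75 bases before the start in Nanog, 99 in Sox2 and 185 in Zfp42, and in 4.12% of the 32851 windows of the table. In Nanog a match to CATTGT followed 1 base after it, at 67 bases before the start; that motif was in 1 of 8 member windows and in 10.7% of all windows. GGGNGGGGC was in 6 of 8 member windows (Esrrb, Klf2, Klf4, Pou5f1, Sox2 and Zfp42) against 15.5% of all windows, with 4 matches in Klf4. In Klf4 the matches at 220 and 215 bases before the start overlap, so their capitals run together. CTTTGAT was in 0 of 8 and 3.21% of all windows, and CTTTGTT in 0 of 8 and 5.03%. These are letter matches within a short window and carry no measurement of binding.

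The arrays matched their labelled cell types. Of a pluripotent list, Dppa5a, Utf1, Fgf4 and Tdgf1, which are not members, read at least 13.31, 12.12, 11.46 and 13.32 in the 10 pluripotent arrays. In MEFs and organoids they read at most 6.99, 7.20, 8.54 and 7.06. The list also held the 10 members, which are the genes under study and so give no separate check. All 20 intestinal epithelium markers were above the array median in both organoid arrays. Of 16 fibroblast markers, 15 or 16 were above the median in each MEF array, with a mean level of 11.68 to 12.40. The same list had a mean of 8.20 to 10.54 in the pluripotent arrays and 7.24 to 7.50 in organoids, and 11 to 15 of its markers were above the median in pluripotent arrays. Among pluripotent arrays it was highest in the Apc Min/Min, Min/+ and +/+ ESCs (10.54, 10.33 and 10.28). Primitive endoderm markers had their highest mean in the Apc Min/Min ESCs, at 9.92, against 7.81 to 9.04 in the other pluripotent arrays. Trophoblast markers had a mean of 8.21 in the Apc Min/Min ESCs, against 8.10 to 8.88 in the other pluripotent arrays. Immune cell markers had a mean of 9.76 and 9.51 in the first pair of derivative 45 MEFs, 7.93 and 7.75 in the second and 6.90 and 6.86 in S33 MEFs. The part of these other cells in the results was not tested. In such bulk samples, fewer cells of a type and less RNA per cell cannot be told apart.

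Nanog, Pou5f1 and Sox2, the core of the network, were high in every pluripotent array, and Nanog had the lowest SD of the 10 members. Nanog, the homeobox factor, read 13.26, 13.42 and 13.48 in RTC 1, 2 and 3, 13.27 and 13.28 in derivatives 45 and 9, 13.27, 13.32 and 13.38 in Apc +/+, Min/+ and Min/Min ESCs, and 13.17 and 13.38 in S33 ESCs without and with dox. The highest array was thus 1.24-fold above the lowest. The SD of its log2 level over the 10 arrays was 0.09 (mean 13.32), lower than that of all but 1.09% of the 9268 genes that were above the median in all 10 arrays. Against the 233 genes of like level it stood lower than all but 18.9%.

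Pou5f1, the POU factor Oct4, read 12.98, 13.13 and 13.16 in RTCs, 13.08 and 13.05 in derivatives 45 and 9, 13.00, 13.00 and 12.91 in Apc +/+, Min/+ and Min/Min ESCs, and 12.53 and 12.60 in S33 ESCs without and with dox. The S33 line was the low one, and the other 8 arrays lay within 12.91 to 13.16. Sox2, the partner of Pou5f1, read 12.66, 12.70 and 12.73 in RTCs, 12.55 and 13.18 in derivatives 45 and 9, 12.58, 12.77 and 12.47 in Apc +/+, Min/+ and Min/Min ESCs, and 12.84 and 13.04 in S33 ESCs without and with dox. Here derivative 9 was highest and the Apc Min/Min ESCs lowest, and the derivatives stood on either side of their RTC lines. The SDs over the 10 arrays were 0.21 for Pou5f1 and 0.22 for Sox2, and 28.5% and 30.9% of genes had a lower one. Among genes of like level these shares were 69.3% and 66.1%, so both varied more than most genes as bright. Whether these probe sets also read reprogramming transgenes in RTCs was not tested.

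The orphan nuclear receptor gene Esrrb and the Grainyhead-family gene Tfcp2l1, both activators within the network, had their lowest readings among pluripotent arrays in derivatives. Esrrb read 12.32, 12.30 and 12.33 in RTCs, 11.76 and 11.74 in derivatives, 12.12, 12.50 and 12.11 in Apc +/+, Min/+ and Min/Min ESCs, and 11.99 and 12.48 in S33 ESCs without and with dox. The derivatives were the 2 lowest arrays. Tfcp2l1 read 12.59, 12.69 and 12.65 in RTCs, 11.49 and 12.13 in derivatives 45 and 9, 12.28, 12.43 and 12.72 in Apc +/+, Min/+ and Min/Min ESCs, and 12.02 and 12.62 in S33 ESCs without and with dox. Derivative 45 was lowest, and its distance to derivative 9 exceeded the whole range of the RTCs. The SDs were 0.27 for Esrrb and 0.39 for Tfcp2l1, and 49.4% and 80.4% of genes had a lower SD, as had 71.3% and 93.7% of genes of like level.

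Zfp42, the zinc finger gene Rex1, read 11.12, 10.75 and 10.74 in RTCs, 10.80 and 10.73 in derivatives, 9.76, 9.65 and 10.33 in Apc +/+, Min/+ and Min/Min ESCs, and 10.43 and 10.89 in S33 ESCs without and with dox. It was lowest in the Apc +/+ and Min/+ ESCs, which stood below all 8 other pluripotent arrays. Its highest array was 2.77-fold above its lowest, and its SD was 0.48, above that of 89.8% of genes of like level.

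The 3 Klf genes code for zinc finger factors that can stand in for one another in ESCs. Klf2 read 11.13, 10.90 and 10.93 in RTCs, 10.92 and 11.32 in derivatives 45 and 9, 10.95, 10.84 and 10.29 in Apc +/+, Min/+ and Min/Min ESCs, and 11.61 and 11.85 in S33 ESCs without and with dox. Its extremes were thus the S33 ESCs above and the Apc Min/Min ESCs below. Klf4 read 11.75, 11.59 and 11.69 in RTCs, 10.58 and 11.38 in derivatives 45 and 9, 10.59, 10.96 and 11.20 in Apc +/+, Min/+ and Min/Min ESCs, and 11.33 and 11.98 in S33 ESCs without and with dox. Klf5 read 12.28, 12.65 and 12.54 in RTCs, 11.96 and 12.05 in derivatives, 12.43, 12.54 and 12.72 in Apc +/+, Min/+ and Min/Min ESCs, and 12.42 and 12.75 in S33 ESCs without and with dox. The derivatives were the lowest arrays for Klf5, and derivative 45 and the Apc +/+ ESCs for Klf4. SDs were 0.44 for Klf2, 0.48 for Klf4 and 0.27 for Klf5, above those of 87.7%, 92.0% and 75.7% of genes of like level.

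Tbx3, a T-box factor, varied most among the members relative to all genes. It read 12.06, 11.83 and 11.74 in RTCs, 10.57 and 11.16 in derivatives 45 and 9, 10.46, 10.78 and 11.81 in Apc +/+, Min/+ and Min/Min ESCs, and 10.77 and 12.01 in S33 ESCs without and with dox. The arrays fell into a lower range of 10.46 to 11.16 and an upper range of 11.74 to 12.06, with no array between. The highest was 3.02-fold above the lowest, the SD was 0.63, and 96.3% of all genes had a lower SD, as had 96.9% of the 1974 genes of like level. Over the 10 members the median SD was 0.33, against 0.27 over all 9268 genes.

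**Figure D1:**
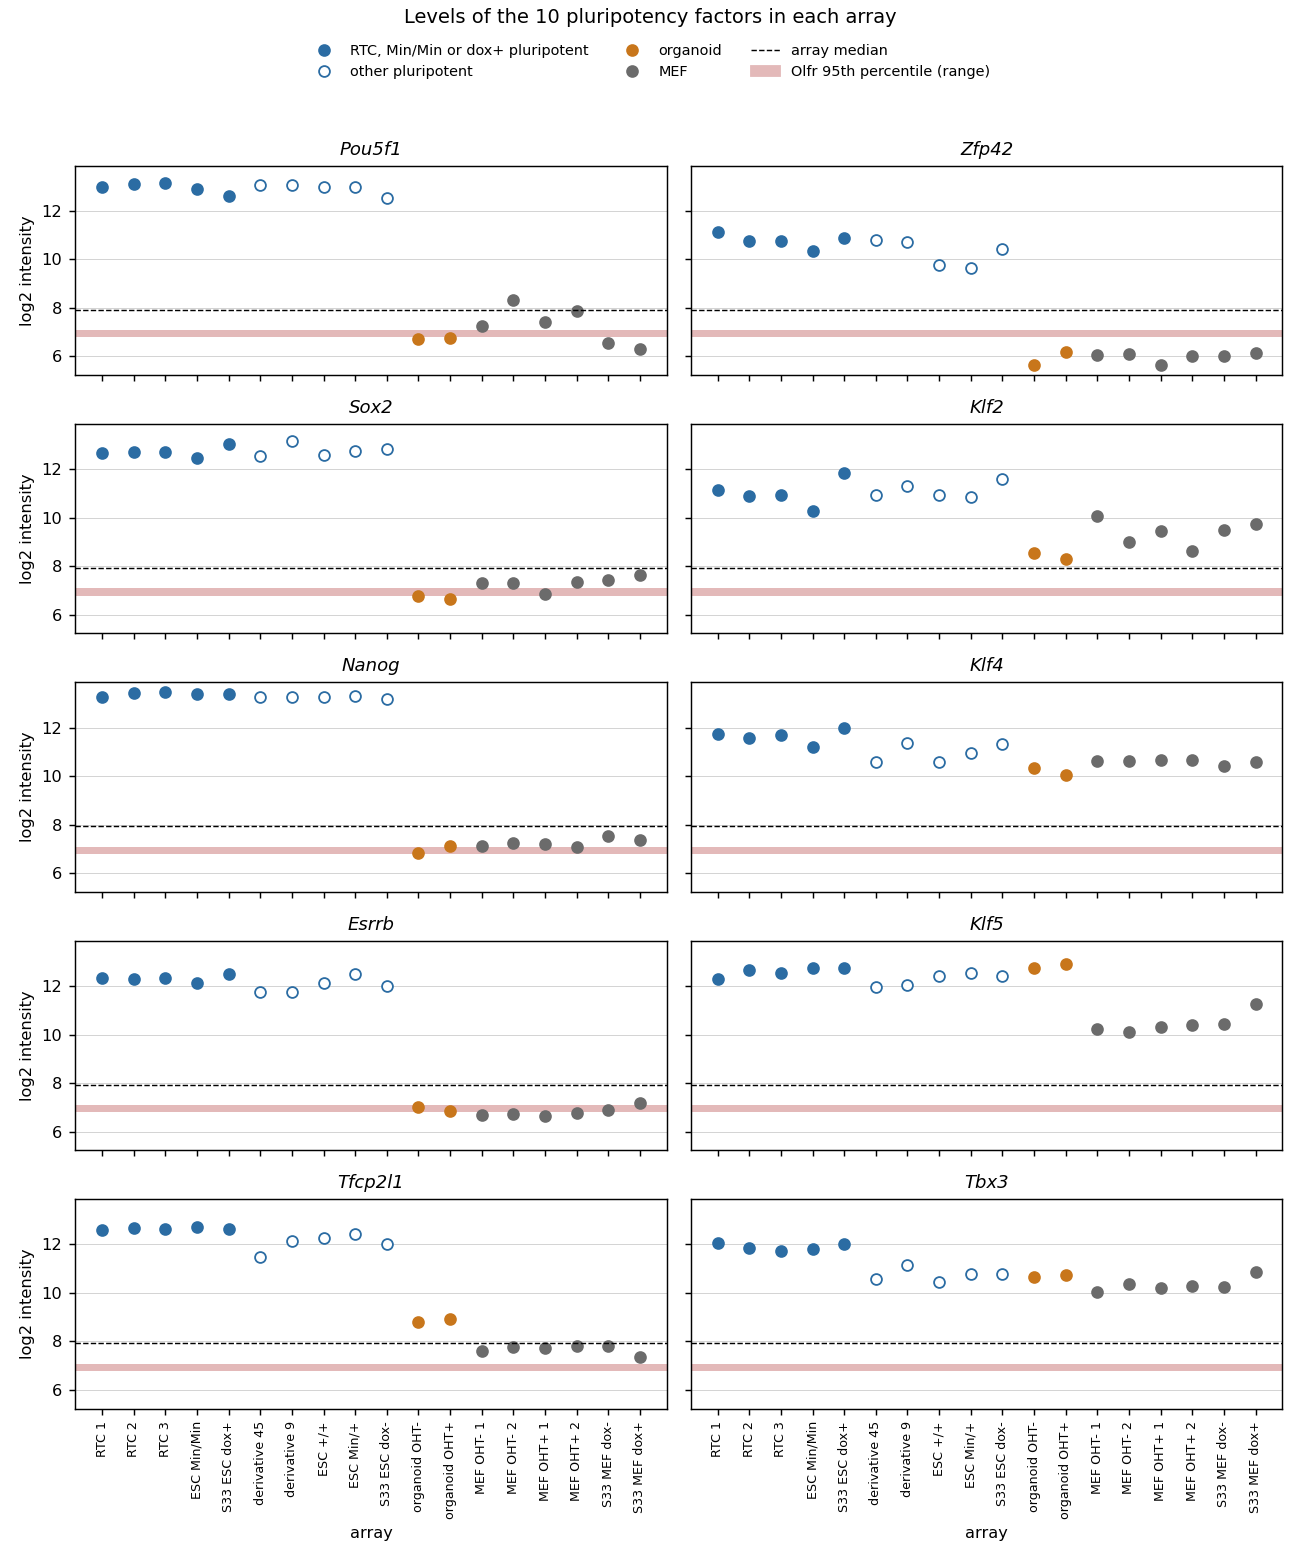
Level of each factor (log2 intensity, y axis) in each of the 18 arrays (x axis), 1 point per array; filled blue points are RTCs, Apc Min/Min ESCs and S33 ESCs with dox, open blue points the other pluripotent arrays, orange points organoids and grey points MEFs. The dashed line is the array median (7.93) and the red band the range over arrays of the 95th percentile of olfactory receptor genes (6.79 to 7.09); Nanog stays within 13.17 to 13.48 in pluripotent arrays and Tbx3 splits into 2 ranges.

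**Figure D2:**
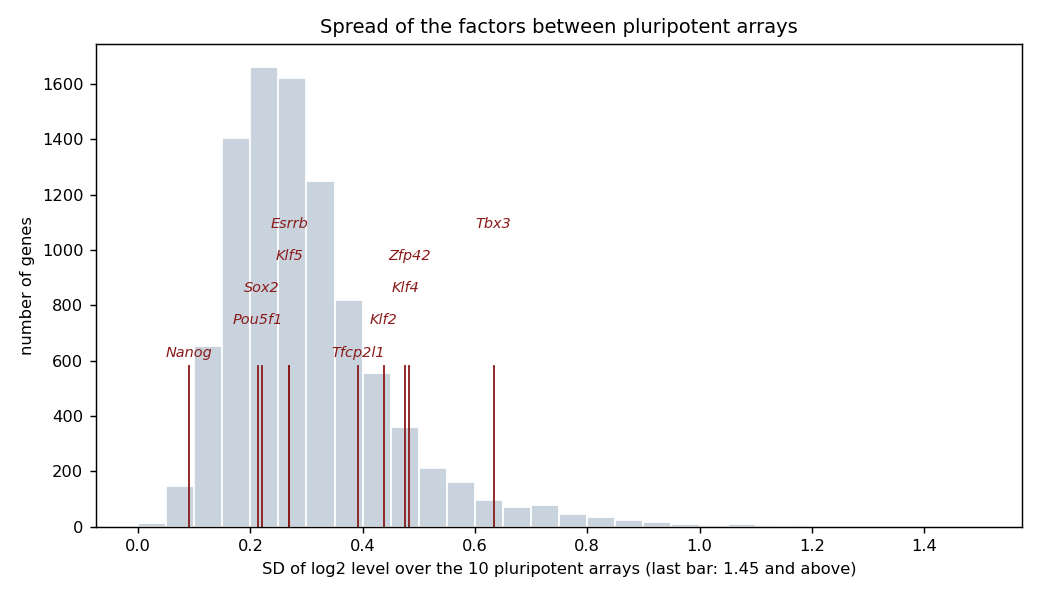
Number of genes (y axis) by SD of the log2 level over the 10 pluripotent arrays (x axis), for the 9268 genes above the array median in all 10; red lines mark the 10 factors. Nanog (0.09) lies at the low end and Tbx3 (0.63) in the high tail.

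Outside pluripotent cells Sox2, Nanog, Esrrb and Zfp42 were below the array median in all 8 arrays, and Pou5f1 in all but 1 MEF array. Tfcp2l1 was below the median in MEFs and above it in organoids, and Klf2, Klf4, Klf5 and Tbx3 stayed above the median in all 8. Pluripotent cells were compared with MEFs (10 arrays against 6) and organoids (10 against 2) in 1 limma fit of all 18 arrays in 3 cell-type groups. Against MEFs, 10 of 10 members were higher in pluripotent cells at an adjusted p under 0.05, where 33.9% of all 13277 genes tested were. Their median difference was 4.61, against -0.06 over all genes tested. Against organoids 8 of 10 were higher and 0 lower, where 28.3% of 13335 genes were higher and 26.3% lower, with a median difference of 4.06 against 0.04. With 1 member (MEFs) and 4 members (organoids) that were at background there set to the lower bounds given below, the medians were 4.13 and 3.48.

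Nanog read 7.11, 7.19, 7.23 and 7.07 in derivative 45 MEFs (the first pair without and with 4-OHT, then the second), 7.54 and 7.37 in S33 MEFs without and with dox, and 6.84 and 7.12 in organoids without and with 4-OHT. All 8 arrays were below the array median, and the lowest pluripotent array was 5.63 above the highest of them. The difference was 6.07 ± 0.08 (SE, limma) against MEFs, a 67.2-fold change with an adjusted p of 6.4e-20, and the lowest p-value of all genes in that comparison. Against organoids it was 6.34 ± 0.12 (adjusted p 2.9e-18, limma), with 1 of the 2 organoid arrays above the 95th percentile of olfactory receptor genes.

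Sox2 read 7.29, 6.85, 7.32 and 7.37 in derivative 45 MEFs, 7.42 and 7.63 in S33 MEFs, and 6.77 and 6.64 in organoids, in the same order. Pluripotent cells were 5.44 ± 0.12 (SE) above MEFs, where 5 of 6 arrays were above the 95th percentile of olfactory receptor genes, and at least 51.2-fold above organoids (adjusted p 6.1e-17 and 9.3e-16, limma). Here and below, "at least" is given where no array of the dimmer group was above that percentile: the bright group's mean is then set against the percentile of each dim array, or the array's own reading if higher, and the p-value is that of the fit on the readings. Pou5f1 read 7.26, 7.42, 8.32 and 7.87 in derivative 45 MEFs, 6.55 and 6.29 in S33 MEFs, and 6.70 and 6.76 in organoids. It was thus higher in all 4 derivative 45 MEF arrays than in S33 MEFs, and in 1 of them, the second untreated array, above the array median, while in that array Nanog (7.23) and Zfp42 (6.08) were below the median. The cause of this was not tested. Pluripotent cells were 5.66 ± 0.23 above MEFs (4 of 6 arrays above the percentile) and at least 58.4-fold above organoids (adjusted p 3.7e-13 and 1.3e-11, limma).

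Esrrb read 6.65 to 6.74 in the 4 derivative 45 MEF arrays, 6.88 and 7.18 in S33 MEFs without and with dox, and 7.02 and 6.84 in organoids without and with 4-OHT. It was below the array median in 8 of 8, and pluripotent cells read 5.36 ± 0.13 (SE) above MEFs, of which 1 of 6 arrays was above the olfactory receptor percentile, so that this value rests mostly on background. They were at least 34.1-fold above organoids (adjusted p 1.4e-16 and 1.6e-14, limma). Zfp42 read 5.63 to 6.14 in MEFs and 5.63 and 6.20 in organoids, all under the 95th percentile of olfactory receptor genes. Pluripotent cells were at least 3.59 above MEFs and at least 3.45 above organoids on the log2 scale (adjusted p 9.9e-13 and 1.3e-10, limma).

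Tfcp2l1 took different levels in the 2 other cell types. It read 7.62 to 7.82 in derivative 45 MEFs, 7.81 and 7.36 in S33 MEFs without and with dox, and 8.79 and 8.91 in organoids without and with 4-OHT. Organoids were thus above the array median and MEFs below it. Pluripotent cells were 4.68 ± 0.16 above MEFs and 3.51 ± 0.24 above organoids (SE; adjusted p 3.1e-14 and 3.6e-10, limma). Organoids were 1.17 ± 0.25 above MEFs (2 arrays against 6; adjusted p 0.00064, limma). On the values as deposited that last difference was 0.69 with an adjusted p of 0.058.

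Klf2 was lower in both other cell types but stayed above the array median. It read 10.07, 9.45, 8.99 and 8.61 in derivative 45 MEFs (first pair, then second), 9.48 and 9.75 in S33 MEFs, and 8.55 and 8.30 in organoids. The lowest pluripotent array, 10.29 in Apc Min/Min ESCs, lay 0.22 above the highest MEF array, so the groups did not overlap. The differences were 1.68 ± 0.22 against MEFs and 2.65 ± 0.33 against organoids (SE; adjusted p 1.7e-06 and 1.9e-06, limma). Organoids were 0.96 ± 0.35 below MEFs (adjusted p 0.026, limma), a call that was lost without either organoid array (adjusted p 0.075 and 0.16). The 2 MEF arrays with the highest mean of immune cell markers (9.76 and 9.51) included the one with the highest Klf2; the part of those cells in the Klf2 level was not tested.

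Klf4 and Tbx3 overlapped between cell types. Klf4 read 10.64, 10.65, 10.64 and 10.65 in derivative 45 MEFs, 10.40 and 10.60 in S33 MEFs, and 10.33 and 10.03 in organoids, so MEFs sat beside the lowest pluripotent arrays (10.58 in derivative 45 and 10.59 in Apc +/+ ESCs). The mean difference was 0.71 ± 0.18 against MEFs and 1.12 ± 0.28 against organoids (SE; adjusted p 0.0022 and 0.0021, limma). With untreated arrays only, the organoid difference was 0.90 with an adjusted p of 0.081. Tbx3 read 10.05, 10.19, 10.37 and 10.30 in derivative 45 MEFs, 10.26 and 10.88 in S33 MEFs without and with dox, and 10.66 and 10.76 in organoids. The lower group of pluripotent arrays (10.46 to 11.16) shared this range. Pluripotent cells were 0.98 ± 0.25 above MEFs (adjusted p 0.0017, limma), and 0.62 ± 0.37 above organoids, which did not pass (adjusted p 0.17; 95% interval -0.16 to 1.39). As deposited, the organoid difference was 0.98 and passed (adjusted p 0.031).

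Klf5 was high in organoids and in pluripotent arrays and lower in MEFs. It read 12.74 and 12.91 in organoids without and with 4-OHT, against 11.96 to 12.75 in pluripotent arrays, and the 95% interval of the pluripotent minus organoid difference was -0.89 to 0.11 (-0.39 ± 0.24 SE, adjusted p 0.17, limma). With arrays centred on their medians instead, the difference was -0.77 and passed (adjusted p 0.0088). In MEFs Klf5 read 10.23, 10.31, 10.11 and 10.41 for derivative 45 and 10.45 and 11.27 for S33 without and with dox, all below every pluripotent array. Pluripotent cells were 1.97 ± 0.16 above MEFs (adjusted p 3.6e-09, limma) and organoids 2.36 ± 0.25 above MEFs (adjusted p 2e-07, limma).

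In the comparison of organoids with MEFs, 6 members could be tested, since Sox2, Nanog, Esrrb and Zfp42 were below the array median in all 8 arrays. Klf5 and Tfcp2l1 were higher in organoids and Klf2 lower, where 26.9% of 13176 genes were higher and 27.8% lower. Pou5f1 (-0.56), Klf4 (-0.42) and Tbx3 (0.37) did not pass (adjusted p 0.20, 0.24 and 0.45, limma). As deposited, where the median of all genes was itself 0.44 lower in organoids, Pou5f1 (-1.01) and Klf4 (-0.88) passed as lower; Pou5f1 was at background in both organoid arrays. In all, 7 of 10 members had every pluripotent array above every organoid and MEF array, the exceptions being Klf4, Klf5 and Tbx3; 11.3% of 13948 genes did.

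**Figure D3:**
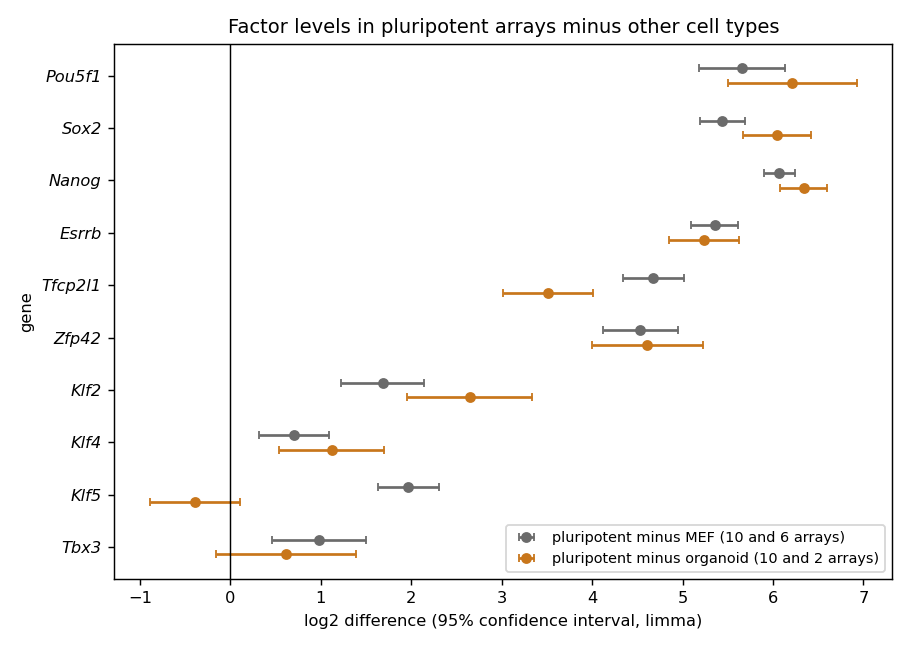
Difference in log2 level (x axis) between pluripotent arrays and MEFs (grey; 10 and 6 arrays) or organoids (orange; 10 and 2 arrays) for each factor (y axis), with 95% confidence intervals from the limma fit. Pou5f1, Sox2, Nanog, Esrrb, Tfcp2l1 and Zfp42 lie between 3.51 and 6.34, while Klf4, Tbx3 and, against organoids, Klf5 lie between -0.39 and 1.12. Differences are of readings, and those of Zfp42 and, against organoids, Pou5f1, Sox2 and Esrrb are against background. That of Esrrb against MEFs is mostly so, with 1 of 6 MEF arrays above the olfactory receptor percentile. That of Nanog against organoids is against readings near background, with 1 of 2 organoid arrays above that percentile (7.12 against 7.06).

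Derivative 45 and the cells made from it give the same contrast within 1 line, with 1 array per arm and so no test. From derivative 45 to its untreated organoids, Nanog, Pou5f1, Sox2, Zfp42 and Esrrb came under the olfactory receptor percentile of the organoid array, and derivative 45 was at least 72.8-fold, 63.6-fold, 43.9-fold, 13.1-fold and 25.6-fold above it. Tfcp2l1 differed by -2.69 and Klf2 by -2.37. All 7 were at least 2-fold lower, as were 18.1% of 12401 genes. Klf4 (-0.25), Tbx3 (0.08) and Klf5 (0.78) were less than 2-fold apart. To its untreated MEFs of the first pair, Nanog differed by -6.16, Pou5f1 by -5.82, Sox2 by -5.25, Tfcp2l1 by -3.86 and Klf5 by -1.72, and derivative 45 was at least 28.6-fold higher for Esrrb and 14.6-fold for Zfp42, where 17.8% of 12253 genes were at least 2-fold lower. Klf2 (-0.85), Tbx3 (-0.53) and Klf4 (0.06) were less than 2-fold apart.

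On the likeness of RTCs to ESCs, the 3 RTC lines were set against 3 ESC arrays: S33 without dox, Apc +/+, and Apc Min/+, which carries 1 mutated allele. Tbx3 was the 1 member that passed, higher in RTCs, where 3.21% of 12080 genes were higher. It read 11.74 to 12.06 in RTCs and 10.46 to 10.78 in the 3 ESC arrays. The difference was 1.20 ± 0.15 (SE), or 2.30-fold, with an adjusted p of 0.0054 (limma). It passed without any 1 of the 6 arrays, with an adjusted p of at most 0.026. Immune cell markers moved with this comparison, with a mean of 8.26, 9.06 and 9.13 in RTCs and 7.56, 7.65 and 7.66 in the ESC arrays; their part in the Tbx3 difference was not tested. With the Apc Min/Min ESCs added to the ESC arm, the difference was 0.92 and did not pass (adjusted p 0.19).

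Zfp42 was 0.92 ± 0.23 higher in RTCs and Klf4 0.72 ± 0.19 higher, but neither passed (adjusted p 0.055 and 0.073, limma). Without the S33 ESC array both passed (adjusted p 0.0066 and 0.014), and Zfp42 also passed in a fit of all 18 arrays (adjusted p 0.019), with an intensity trend or with a stricter filter (both 0.044). Tfcp2l1 was 0.40 ± 0.14 higher (adjusted p 0.14, limma). The other 6 members differed by -0.15 (Klf2) to 0.24 (Pou5f1), with 95% intervals that reached at most from -0.65 to 0.62. The median difference of the members was 0.19, against -0.03 over all genes tested.

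The change from RTCs to their derivatives was compared over 3 and 2 arrays. At an adjusted p under 0.05, 0 of 10 members passed in limma, where 1.6% of 11940 genes did in either direction, and unadjusted, 5 members and 1686 genes had a p under 0.05. These 5 all read higher in RTCs: Tbx3 by 1.01 ± 0.23 (SE), Tfcp2l1 by 0.83 ± 0.23, Klf4 by 0.69 ± 0.25, Esrrb by 0.56 ± 0.17 and Klf5 by 0.49 ± 0.19, with adjusted p of 0.086, 0.15, 0.28, 0.18 and 0.30. In a fit of all 18 arrays, which takes its spread from more groups, Tbx3, Esrrb and Tfcp2l1 passed (adjusted p 0.025, 0.034 and 0.042). Pou5f1, Sox2, Nanog, Zfp42 and Klf2 differed by -0.16 to 0.11, with 95% intervals that reached at most from -0.69 to 0.51.

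Between derivatives and the 3 ESC arrays, which both enter the comparisons above, 0 members passed, as did 0% of 11941 genes. Unadjusted, 2 members and 1012 genes had a limma p under 0.05: Zfp42 was 0.82 ± 0.26 higher in derivatives and Klf5 differed by -0.46 ± 0.16 (adjusted p 0.51 and 0.54). Tbx3 differed by 0.19 (95% interval -0.37 to 0.75).

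The 2 ranges of Tbx3 led to a further comparison, chosen after its values were seen: the 3 RTC lines, Apc Min/Min ESCs and S33 ESCs with dox (5 arrays) against the derivatives, Apc +/+ and Min/+ ESCs and S33 ESCs without dox (5 arrays). Its p-values are therefore no independent support, and it shares arrays with the comparisons above. The lack of overlap of Tbx3 was fixed by this choice, and its rank among genes follows largely from it. Tbx3 was 1.14 ± 0.15 (SE) higher in the first 5, a 2.21-fold difference that was second of 12388 genes by p-value (adjusted p 0.021, limma), and 0.21% of all genes were higher at this threshold. All 5 arrays lay above the other 5, with 0.59 between the nearest. The call was lost on the values as deposited (adjusted p 0.058), with the 4 matched pairs as a block (0.12), without the RTCs and derivatives (0.67), and without RTC 2 (0.092), RTC 3 (0.079), Apc +/+ (0.065), Apc Min/+ (0.065) or S33 ESCs without dox (0.054), while the difference stayed between 1.07 and 1.24 in these. Tfcp2l1 also did not overlap, with 0.16 between the nearest arrays, and was 0.58 ± 0.17 higher, which did not pass (adjusted p 0.17). Non-overlapping genes with the first 5 higher made up 1.17% of all genes. Klf4 (0.67), Zfp42 (0.49), Klf5 (0.31), Esrrb (0.29), Nanog (0.12), Pou5f1 (0.02), Sox2 (-0.06) and Klf2 (-0.11) did not pass. Primitive endoderm markers had a mean of 7.81 to 9.92 in the first 5 arrays and 8.02 to 8.27 in the other 5, fibroblast markers 8.20 to 10.54 and 8.89 to 10.33, and immune cell markers 7.73 to 9.13 and 7.56 to 8.36, with RTC 2 and 3 above every other pluripotent array; their part in the Tbx3 difference was not tested.

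Within these arrays, 4 pairs were matched by line, genotype series or treatment and shared no array: RTC 1 and derivative 45, RTC 3 and derivative 9, Apc Min/Min and Apc +/+ ESCs, and S33 ESCs with and without dox. Tbx3 was higher in the first of each pair, by 1.48, 0.59, 1.35 and 1.24, a direction fixed by the choice of the sets from its values. Apc Min/+ ESCs, with 1 mutated allele, were 0.32 above Apc +/+. Tfcp2l1 was higher by 1.11, 0.52, 0.43 and 0.60, Klf4 by 1.16, 0.31, 0.61 and 0.64, and Klf5 by 0.33, 0.50, 0.30 and 0.34. With Zfp42 (0.32, 0.01, 0.58 and 0.47) these made 5 of 10 members higher in 4 of 4 pairs. That count includes Tbx3, whose values chose the sets, so it is no independent support. Of 12338 genes, 8.15% were higher and 11.3% lower in 4 of 4 pairs. On the values as deposited or centred on the median, Zfp42 was higher in 3 of 4. Esrrb and Nanog were higher in 3 of 4 and Pou5f1, Sox2 and Klf2 in 2 of 4; on median-centred values Nanog was higher in 2 and Pou5f1 and Sox2 in 1.

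**Figure D4:**
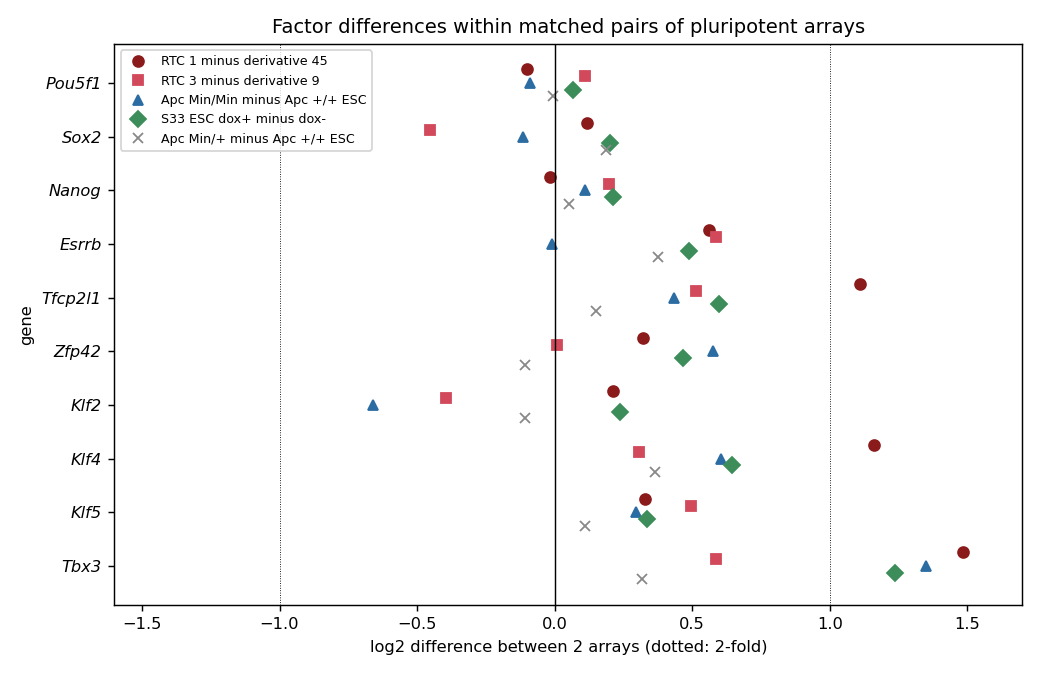
Log2 difference (x axis) of each factor (y axis) between the 2 arrays of 4 matched pairs, with Apc Min/+ minus Apc +/+ ESCs as crosses; each symbol is 1 difference between 1 array and 1 other, and dotted lines mark 2-fold. Tbx3 lies at 0.59 to 1.48 in the 4 pairs and at 0.32 for Apc Min/+, and Pou5f1 between -0.10 and 0.11.

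Differences with treatment of the differentiated cells were under 2-fold for all members above the array median. In derivative 45 MEFs, 2 arrays with and 2 without 4-OHT were compared, and 0 of the 5 testable members passed in limma, as did 0% of 11603 genes; unadjusted, 0 members and 519 genes had a p under 0.05. Klf2 differed by -0.62 with 4-OHT in the first pair and -0.38 in the second, a mean of -0.50 ± 0.49 (SE, adjusted p 1.00). Klf4, Klf5, Tbx3 and Pou5f1 differed by 0.01, 0.18, 0.03 and -0.14. This fit did not pair the arrays, so the SE of Klf2 includes the difference between pairs. With the pair number as a block, 0 members passed, while 54 of all genes were higher and 94 lower. In organoids, with 1 array per arm, the 5 members above the array median differed by -0.30 (Klf4) to 0.17 (Klf5) with 4-OHT; on median-centred values they differed by -0.10 (Klf2) to 0.68 (Klf5), with Klf4 at 0.14 and Tbx3 at 0.59, and as deposited by -0.72 (Klf2) to 0.06 (Klf5). In S33 MEFs, with 1 array per arm, Klf5 was 0.83 and Tbx3 0.62 higher with dox, both short of 2-fold, where 2.5% of 11391 genes were at least 2-fold higher; Klf2 (0.27) and Klf4 (0.20) differed less.

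Other genes of the network were for the most part higher in pluripotent cells too. Among all genes tested, 33.9% were higher and 38.4% lower in pluripotent cells than in MEFs, and 28.3% higher and 26.3% lower than in organoids. Of 27 further pluripotency network genes on the array, 25 were higher and 1 lower than in MEFs. Against organoids 24 were higher and 0 lower, and the median differences were 3.57 (MEFs) and 3.15 (organoids). Among them were Dppa5a, an RNA-binding protein gene of early embryos (at least 109-fold and 99.1-fold), Nr0b1, the nuclear receptor Dax1 (at least 48.6-fold and 44.0-fold), and Dppa2 (at least 57.0-fold and 51.7-fold). Tdgf1, the Nodal co-receptor Cripto, was at least 89.9-fold above organoids and read 7.07 above MEFs, with 1 of 6 MEF arrays above the olfactory receptor percentile. Nr5a2, a nuclear receptor of both ESCs and intestinal epithelium, was at least 11.2-fold higher in organoids than in MEFs (adjusted p 2.4e-08, limma). Between RTCs and ESCs, Gbx2 (0.90) and Nr5a2 (0.76) were higher in RTCs (both adjusted p 0.044, limma), as were 3.21% of 12080 genes. Between RTCs and derivatives 0 of 27 passed, where 1.6% of 11940 genes did. Unadjusted, 4 of the 27 had a limma p under 0.05, as had 1686 of all 11940 genes.

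Of 12 genes of the LIF and Stat3 pathway, which feeds Klf4, Tfcp2l1 and Tbx3 in ESCs, 5 were higher and 6 lower in pluripotent cells than in MEFs, where 33.9% of all genes were higher and 38.4% lower. The higher ones were the Stat3 targets Pim1 (2.02), Socs3 (1.51) and Pim3 (1.48), the adaptor Gab1 (1.60) and the receptor Lifr (0.68), and the lower ones included the kinase Jak1 (-1.42) and Stat3 itself (-1.06). Against organoids 7 were higher, among them Lifr, at least 10.0-fold, and Socs3 (1.98), and 2 lower (Jak2 and Jak1, -1.26 and -0.68), where 28.3% and 26.3% of all genes were. Between RTCs and ESCs or RTCs and derivatives 0 of 12 passed in limma, and 0 had an unadjusted p under 0.05.

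Of 8 measured genes of the Tcf and beta-catenin branch, 1 was higher and 1 lower in RTCs than in ESCs, where 3.21% and 3.48% of all genes were. Against derivatives 2 were higher and 0 lower, where 0.838% and 0.762% of all genes were. Axin2, a feedback target of beta-catenin, was 1.75 higher in RTCs than in ESCs and 1.98 higher than in derivatives (adjusted p 0.0039 and 0.0074, limma). Lef1 was 1.05 higher in RTCs than in derivatives (adjusted p 0.041, limma). Tcf7l1, the repressor of several members, differed by -1.22 in RTCs from ESCs (adjusted p 0.023) and differed by -1.02 from derivatives (0.082). Side by side with Tbx3, Axin2 read 10.57, 10.44 and 10.41 in RTCs and 10.90 in Apc Min/Min ESCs, against 8.26 and 8.72 in derivatives and 8.41 and 8.61 in Apc +/+ and Min/+ ESCs. In S33 ESCs it read 9.14 without and 9.35 with dox, where Tbx3 differed by 1.24, while in S33 MEFs it read 8.60 and 11.27. In organoids Axin2 read 11.30 and 11.81, where Tbx3 was at 10.66 and 10.76.

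Of 10 measured genes of formative and primed pluripotency, the stage after the naive state, 3 were lower in RTCs than in ESCs. Among all 12080 genes tested, 3.48% were lower. The 3 were Otx2 (-3.44), Zic2 (-2.27) and Zic5 (-1.43), with adjusted p of 0.00057, 0.014 and 0.037 (limma). Otx2, a homeobox factor, read 6.85 to 7.38 in RTCs and 7.68 in Apc Min/Min ESCs, and 9.06 to 10.98 in the derivatives, Apc +/+, Min/+ and both S33 ESC arrays. S33 ESCs with dox (9.48) thus stood with the second group for Otx2 but with RTCs for Tbx3.

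Among relatives of the members, 12 of 14 other Klf genes could be tested. Against MEFs 4 were higher in pluripotent cells, led by Klf8 (2.19), and 3 lower, led by Klf7 (-1.15), both near or under the shares of all genes (33.9% and 38.4%). Against organoids 3 were higher, among them Klf8 (at least 8.97-fold) and Klf12 (at least 2.76-fold), and 1 lower, where 28.3% and 26.3% of all genes were. Klf8 was also higher in RTCs than in derivatives (1.05, adjusted p 0.044, limma). Of 17 paralogs of the other members tested, 8 were higher and 5 lower than in MEFs, where 33.9% and 38.4% of all genes were. These included Sox15 (3.57), Grhl2 (at least 2.80-fold) and the limb genes Tbx5 (-3.21) and Tbx4 (-1.66). Against organoids 2 of 16 were higher and 4 lower, where 28.3% and 26.3% of all genes were. The lower ones included Esrrg (-3.19) and the Tfcp2l1 relative Grhl2 (-1.73). Sox15 and Grhl2 thus moved in the direction of Sox2 and Tfcp2l1 against MEFs, and Grhl2 opposite to Tfcp2l1 against organoids.

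The genes whose levels ran most closely with each member over the 18 arrays were found by Pearson's r among genes above the array median in at least 1 array; all points share the split between 10 pluripotent and 8 other arrays, and no test was made. For Nanog they were Tdgf1, Nr0b1 and Dppa2 (r 0.998, 0.998 and 0.997), and for Esrrb the same 3 genes (each 0.997). Sox2 was nearest to Nanog (0.996), Pou5f1 to Trim6 (0.995), Zfp42 to Triml2 (0.994) and Tfcp2l1 to Cdc5l (0.993). The members that stayed high elsewhere had lower highest values of r: Klf5 was nearest to Plekhh1 (0.971), Rbm38 (0.964) and Llgl2 (0.964), Klf2 to Ulk1 (0.937), Tbx3 to Tex2 (0.919) and Klf4 to Pik3cd (0.897).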

How the data were processed

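The deposited values are linear intensities, 1 per probe set and array (28856 probe sets, 3 without values), with medians of 142 to 317 per array. The authors' background correction, probe summary and scaling are not given in the sources at hand. Up to 19.2% of deposited values were identical between some arrays, so intensities were log2 transformed and quantile normalized together; the values as deposited were an alternative. Platform annotation gave 21789 probe sets exactly 1 symbol (1621 several, 5443 none), and the brightest stood for a gene. Comparisons used limma 3.58.1 in R 4.3.3 (two-sided, Benjamini-Hochberg, threshold 0.05) on genes above the array median in at least 1 array compared, after a check on simulated data. The number of arrays limits precision. Members and gene lists were chosen with earlier results of these data known; named are the members, up to 4 listed genes each way per comparison and the 3 nearest genes. The main fit of RTCs against derivatives did not pair arrays. The labelled line of origin (correlation of deviations 0.081) was used for the matched pairs and as a block in an alternative fit. Alternatives covered scaling, filters, probe sets, variance trend, samples and replicates. Promoter windows are RefSeq's (GRCm38.p6).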

Additional observations from a re-analysis of the deposited data

Results flagged for a closer look

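Over 20 sets of arrays examined for an array standing apart, 3 had one, all among the 6 MEF arrays; Dixon's 95% critical value, used here, is one that chance passes in about 1 in 20 sets. Zfp42 was low, at 5.63, in the first 4-OHT-treated derivative 45 MEF array, where all MEF arrays were under the 95th percentile of olfactory receptor genes. Klf4 was low, at 10.40, in S33 MEFs without dox, where the other 5 arrays lay between 10.60 and 10.65. Klf5 was high, at 11.27, in S33 MEFs with dox, 0.83 above the untreated S33 MEFs.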

How the results depend on the processing

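Of 1307 values of single members under alternatives, 1280 stayed on the same side of the threshold, 14 lost a call and 13 gained one; 0 called values changed sign. The counts of 10 members against MEFs and 8 against organoids held in each array left out (10 to 10 and 8 to 8), and the organoid against MEF count ran from 2 to 4. RTCs against ESCs gave 1 member, 2 with the stricter filter, with an intensity trend or with all 18 arrays in the fit, 0 with Apc Min/Min ESCs added, and 1 to 3 with each array left out. RTCs against derivatives gave 0, 3 with all 18 arrays in the fit, and 0 with line of origin as a replicate block (Tbx3 1.03, adjusted p 0.11); that block changed no call of a member. The comparison of 5 against 5 pluripotent arrays gave 1, and 0 as deposited, with matched pairs as a block and without RTCs and derivatives, and 0 to 1 with each array left out. The median SD of the members was 0.25 to 0.35 with each array left out. In MEFs with and without 4-OHT the arrays share only a pair number (correlation of deviations 0.85); the replicate block gave 0 members and calls among all genes, 54 higher and 94 lower, against 0 without it. Derivatives against ESCs gave 0 members, and 44 of all genes higher and 46 lower, with all 18 arrays in the fit. The median difference over all genes was 0.43 (pluripotent minus organoid) and -0.44 (organoid minus MEF) as deposited, and -0.14 for RTCs minus ESCs when median centred.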
